A study of Equus caballus with 18 samples.

Results

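Subgroup A3 held 2 libraries, one from M.biceps brachii, a forelimb muscle, and one from Biceps femoris caudal, the caudal part of a hindlimb muscle. They were 2 of 18 RNA-Seq libraries, each from a different skeletal muscle of 1 male Jeju horse, a pony breed. A3 was compared with subgroup A1, whose 4 libraries came from Caput longum des M. triceps brachii, M.infraspinatus and M.supraspinatus in the forelimb and from Longissimus thoracis and lumborum m. along the back. The members were chosen by the read counts themselves, as the study had placed the muscles in groups A and B and then in subgroups by k-means clustering of genes that differed between muscles. The subgroups therefore come from the same counts that are compared here. Every difference between A3 and A1 below is thus a description of how far apart the libraries lie. Adjusted p-values, standard errors and calls below serve to select and describe genes, and none counts as a test of whether the subgroups differ. Each muscle gave 1 library, so the muscles of a subgroup stand in for replicates, and the spread between them mixes the differences between muscles with those of sampling and library preparation.

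The biceps brachii lies at the front of the upper arm and flexes the elbow and stabilises the shoulder of the horse. The biceps femoris lies at the back of the thigh and extends the hip, and its caudal part helps to flex the stifle. Both are made of fast and slow fibres among vessels, nerves, connective tissue, fat and resident immune cells, and RNA of whole muscle holds the transcripts of all of these. In such bulk samples, fewer cells of a type and less RNA per cell cannot be told apart.

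The biceps brachii library held 33537488 counts and the biceps femoris caudal library 36512040, within the range of 31395013 to 50508515 over the 18 libraries. The table lists Ensembl identifiers with no gene names, and the RefSeq table at hand paired none of them with a symbol, so genes are given by identifier. Marker genes of muscle, fibre types and other cell types were therefore not analysed here, and neither the labelled tissue nor the cell types present were checked against them. Levels are given in CPM, the counts of a gene relative to the library total, scaled between libraries by the trimmed mean of M-values (TMM). Before scaling, the median tested gene lay 0.36 log2 units above the A1 mean in biceps brachii and 0.16 above it in biceps femoris caudal. After scaling the medians were -0.011 and 0.0019, and all differences below are relative to that. Biceps brachii had the larger TMM factor of the pair, 1.17 against 1.005, where the A1 libraries lay between 0.820 and 1.01.

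The genes called between A3 and A1 were nearly all higher in A3. Of 13541 genes tested, 135 were called higher in A3 (0.997%) and 1 was called lower (0.00738%). A call needs an adjusted p below 0.05 from edgeR's quasi-likelihood fit with Benjamini-Hochberg adjustment. It also needs a log2 fold change (log2FC) beyond 1 in either direction. As the subgroups came from these same counts, a call marks a gene for description and is no evidence that the subgroups differ. The fit held the 3 libraries of subgroup A2 beside those of A1 and A3. From the A1 and A3 libraries alone 8 genes were called, and leaving out 1 library of the 9 gave 5 to 558. The log2FC of the genes called higher had a median of 2.41, or 2.40 with the 1 gene that had 0 counts in every A1 library set at its lower bound, while the median over all genes tested was -0.03. The difference was unequal between the libraries of A3. Over the called genes, biceps brachii lay a median of 2.84 log2 units above the A1 mean and biceps femoris caudal 1.39 above it. Biceps brachii was the higher of the pair in 126 of the 135 genes and biceps femoris caudal in 9. The genes were chosen by the mean of A3, which favours the library with more large upward differences, and the same count over all genes tested was not made.

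To state which library carried a change, a library was counted as carrying it when its log2 CPM lay outside the range of all 4 A1 libraries and over 1 log2 unit from their mean. By this rule, 118 of the 135 genes called higher were carried by both A3 libraries, 17 by biceps brachii only and 0 by biceps femoris caudal only. Over all genes tested, 303 were carried higher by both (2.24%), 816 by biceps brachii only (6.03%) and 71 by biceps femoris caudal only (0.524%). A call weighs the mean of A3 against the spread within subgroups, which favours genes that both A3 libraries carry. The split of the called genes thus largely follows from how they were chosen. The split depended on the fit. Among the genes called higher by DESeq2 it was 203, 122 and 2, and without the count filter 212, 128 and 3. From all 18 libraries it was 194, 115 and 0. With DESeq2 size factors in edgeR it was 90, 8 and 0, and with a mean of at least 10 counts 72, 7 and 0. From the A1 and A3 libraries alone it was 8, 0 and 0. These splits count only genes among the 13541. The 17 genes lay 1.49 to 2.67 log2 units above the A1 mean in biceps brachii and 0.59 to 0.999 above it in biceps femoris caudal. In all 135 genes both A3 libraries were above every A1 library, as were both in 9.87% of all genes tested, so in the 17 genes the caudal library went the same way by less than the margin. A difference of over 2 log2 units was reached in biceps brachii by 125 of the 135 genes and in biceps femoris caudal by 25. Over all genes tested, biceps brachii also carried more genes higher, 1124 (8.3%) against 374 (2.76%) in biceps femoris caudal.

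**Figure D1:**
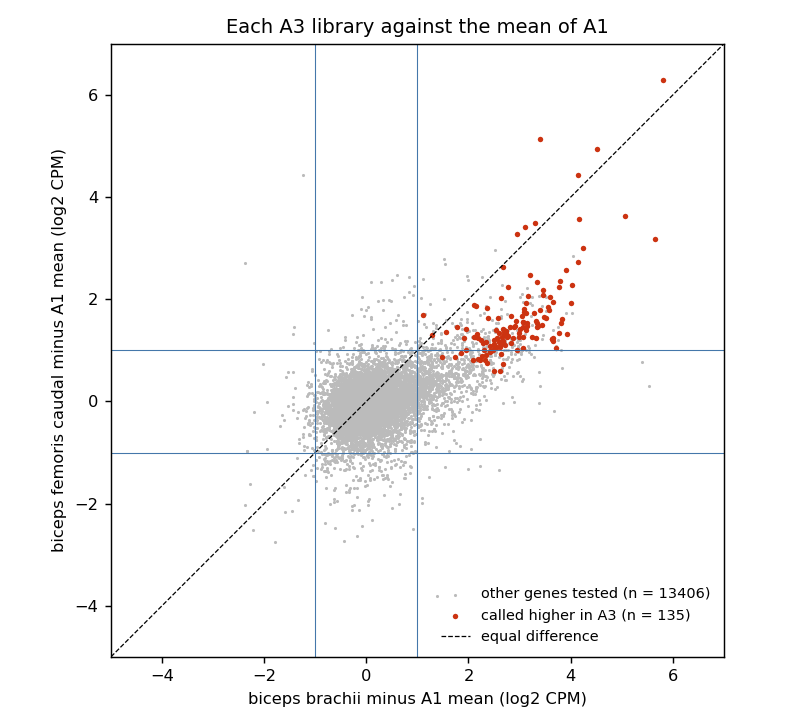
Difference from the A1 mean in log2 CPM of each of 13541 genes, in biceps brachii (horizontal axis) and biceps femoris caudal (vertical axis), with the 135 genes called higher in A3 in red, the margins of 1 log2 unit as thin lines and equal difference as a dashed line. Of the red points, 126 lie below the dashed line, where the difference was larger in biceps brachii.

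The genes called higher were low in A1. Their mean A1 level had a median of 0.520 CPM, and 96 of the 135 (71.1%) were under 1 CPM in A1, against 3255 of the 13541 genes tested (24%). In 11 of the 135 genes no A1 library had over 3 counts. The filter on low counts kept genes with so few reads in A1 because other libraries held more, so their presence among the genes tested depends on the filter. In A3 these genes stayed at low to moderate levels, with a median of 4.40 CPM in biceps brachii and 1.61 CPM in biceps femoris caudal. Together they took 0.113% of all counts of biceps brachii, 0.0394% of those of biceps femoris caudal and 0.00854% to 0.0198% of those of the A1 libraries.

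The gene with the largest difference backed by many reads was ENSECAG00000009556, which both A3 libraries carried. It had 14.3 CPM in biceps brachii and 20.1 CPM in biceps femoris caudal. In A1 it had 0.124 CPM in triceps brachii, 0.248 in infraspinatus, 0.053 in supraspinatus and 0.719 in longissimus. The groups did not overlap, and both A3 libraries also lay above the other 12 muscles, whose levels ran from 0 to 0.472 CPM with a median of 0.0952. Its log2FC was 5.87 with a standard error of 0.51, and 6.92 without longissimus, the highest of the A1 libraries. Here biceps femoris caudal was the highest of the 18 muscles and biceps brachii the next, the reverse of the order seen in most called genes.

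The largest fitted log2FC, 6.34, belonged to ENSECAG00000016970, a gene near the limit of detection. It had 11 counts in biceps brachii, 10 counts in biceps femoris caudal and 0 counts in each of the 4 A1 libraries. Both A3 libraries carried it, at 0.281 and 0.273 CPM, and were the 2 highest of the 18 muscles. Against a floor of 3 counts in an A1 library, its mean A3 level was at least 2.97-fold higher, and the fitted value depends on the prior count. Its call was lost from the A1 and A3 libraries alone and in each fit without 1 library of A1 or A2, and without either A3 library it did not pass the filter on low counts. Over the other 12 muscles it lay between 0 and 0.110 CPM.

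The calls depended on which library was left out of the fit. Of the 136 called genes, 4 were also called in each of the 9 fits that left out 1 library of group A. Both A3 libraries carried all 4, with log2FC of 3.92 to 5.87, and they lay 4.15 to 5.81 log2 units above the A1 mean in biceps brachii and 3.57 to 6.30 above it in biceps femoris caudal. ENSECAG00000009556 was one of the 4. Without biceps brachii 5 genes were called, and without biceps femoris caudal 558. These fits leave 1 library in A3, which is assumed to vary like the libraries of A1 and A2. The fits without triceps brachii, infraspinatus or supraspinatus called 5, 6 and 5 genes, those without rhomboideus or trapezius 8 and 9, and those without extensor digitorum communis or longissimus 64 and 112.

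The only gene called lower in A3 was ENSECAG00000005658, named after its values were seen. It had 30.3 CPM in biceps brachii and 20.6 CPM in biceps femoris caudal. Its A1 levels were 58.6 CPM in triceps brachii, 51.9 in infraspinatus, 55.7 in supraspinatus and 46.8 in longissimus. The groups did not overlap, and the A1 mean was 53.3 ± 5.09 CPM (SD, n = 4). The log2FC was -1.07 with a standard error of 0.19, and this call was lost in most fits that left out a library. Biceps femoris caudal, 1.36 log2 units below the A1 mean and the lowest of the 18 muscles, carried the change. Biceps brachii, 0.81 below the A1 mean, lay under every A1 library but within the margin, and omohyoideus, at 29.9 CPM, was lower still.

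Differences carried by a library were more often upward in biceps brachii than in biceps femoris caudal. Of the genes tested, 303 were carried higher by both A3 libraries (2.24%) and 12 were carried lower by both (0.0886%). A further 816 were carried higher by biceps brachii only (6.03%) and 64 lower by it only (0.473%). Biceps femoris caudal alone carried 71 genes higher (0.524%) and 176 lower (1.3%). In 5 genes the libraries were carried in opposite directions (0.0369%), and 12094 were carried by neither. Some counts depended on 1 library, as the 12 genes lower in both became 22 without triceps brachii, 27 without infraspinatus and 22 without longissimus, and the 64 lower in biceps brachii only became 105 without infraspinatus. With a margin of 0.58 log2 units the 12 became 88 and the 71 higher in biceps femoris caudal only became 228. The 5 genes in opposite directions became 12 without triceps brachii and 8 without infraspinatus. They became 15 with a prior count of 0.5 and 66 with the margin of 0.58. With the margin of 1 log2 unit and all libraries, biceps brachii carried 1124 genes higher and 76 lower, and biceps femoris caudal 374 higher and 193 lower. Of the 303 genes carried higher by both, 185 were not called, and biceps brachii was the higher of the pair in 276. The 303 genes were chosen as high in A3, so the count of 276 is a description.

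**Figure D2:**
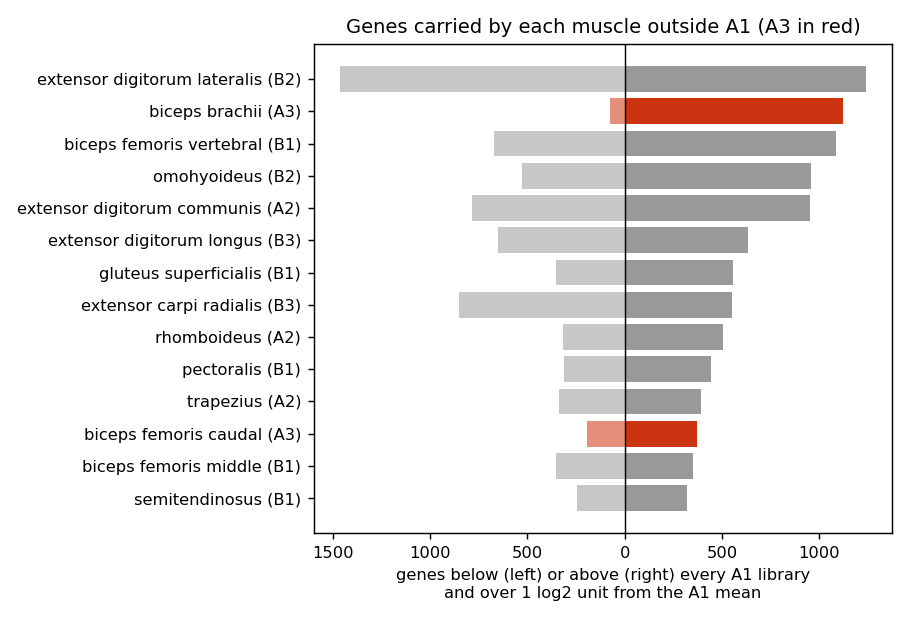
Number of genes that each of the 14 muscles outside A1 carried higher (right) or lower (left) than A1, with subgroups in parentheses and A3 in red. Biceps brachii has the fewest genes carried lower, 76, beside 1124 carried higher, and biceps femoris caudal has 193 beside 374.

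The same rule was applied to the other muscles, of which the 3 of subgroup A2 were also in the fit. Among the 12 muscles outside A1 and A3, the number carried higher ran from 319 in semitendinosus to 1241 in extensor digitorum lateralis, and the number carried lower from 244 to 1462. The upward counts of both A3 libraries lay within that range. Both A3 libraries carried fewer genes lower than any of the 12 muscles.

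As pairs of libraries, biceps brachii and biceps femoris caudal lay within the range of pairs within A1, towards its upper end. They differed by over 1 log2 unit in 1226 genes (9.05%). The pairs within A1 differed in 842, 862, 980, 984, 1219 and 1348 genes. Pairs of an A1 library with biceps brachii differed in 1374 to 1850 genes, and pairs with biceps femoris caudal in 856 to 1191. Biceps femoris caudal was thus nearer to each A1 library than to biceps brachii. Its closest library of all was longissimus, with 856 genes. The closest to biceps brachii was biceps femoris caudal itself, and supraspinatus came next with 1374 genes.

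Differences carried by biceps brachii only were the most frequent kind. Of the 816 upward ones 17 were called. Of the genes described next as carried by a single library, that same edgeR fit called none, so their values are given without a call. Some were called in other fits that kept every A1 and A3 library, at nearly the same log2FC. ENSECAG00000013081 was called without the count filter and from all 18 libraries. Its log2FC was 5.23 in the main fit, 6.21 without biceps femoris caudal and 0.105 without biceps brachii. ENSECAG00000027547, carried by biceps femoris caudal, was called with DESeq2 and without the count filter. The genes with the largest upward difference were low in most other muscles. ENSECAG00000013081 had 3.96 CPM in biceps brachii and 0.0545 CPM in biceps femoris caudal. Its A1 level was 0 CPM in triceps brachii, 0.0621 in infraspinatus, 0.132 in supraspinatus and 0 in longissimus. Biceps brachii stood apart from all other muscles, of which the 12 outside A1 and A3 ran up to 0.455 CPM, while the caudal library lay inside the A1 range. These levels rest on 155 counts in biceps brachii and 2 in biceps femoris caudal.

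ENSECAG00000014725 had 7.29 CPM in biceps brachii and 0.245 CPM in biceps femoris caudal. The A1 libraries had 1.40 CPM in infraspinatus, 0.186 in longissimus and 0 in triceps brachii and supraspinatus. Biceps brachii was again the highest of the 18 muscles, and the caudal library lay between the A1 libraries. Extensor digitorum communis, with 2.60 CPM, was the highest of the other 12 muscles, whose median was 0.0316. Of the 816 genes carried higher by biceps brachii only, 336 (41.2%) were carried higher by none of these 12 muscles, against 37 of the 303 genes (12.2%) that both A3 libraries carried. For the 71 genes carried higher by biceps femoris caudal only it was 24 (33.8%). The classes were set by whether a second library carried the gene, which favours this contrast. In biceps brachii the median difference from the A1 mean was 1.43 log2 units in the 816 genes and 2.63 in the 303.

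Among genes lower in biceps brachii only that had at least 10 counts in every A1 library, ENSECAG00000012172 had the largest difference. It had 17.1 CPM in biceps brachii and 34.7 CPM in biceps femoris caudal. In A1 it had 30.6 CPM in triceps brachii, 29.1 in infraspinatus, 136 in supraspinatus and 158 in longissimus. The A1 libraries were split into a low and a high pair, and the caudal library lay just above the low pair, inside the A1 range. Biceps brachii lay below the range but ranked 11 of the 18 muscles, since most muscles outside A1 and A3 were lower, with a median of 11.2 CPM.

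ENSECAG00000014579 had 0.332 CPM in biceps brachii and 0.845 CPM in biceps femoris caudal. For A1 the levels were 0.932 CPM in triceps brachii, 1.49 in infraspinatus, 1.64 in supraspinatus and 0.879 in longissimus. Both A3 libraries were below every A1 library, but the caudal library was just under longissimus and only biceps brachii passed the margin. Biceps brachii was the lowest of the 18 muscles, close to rhomboideus at 0.351 CPM.

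Differences carried by biceps femoris caudal only had their largest upward difference in a gene detected in the hindlimb and in longissimus. ENSECAG00000024985 had 2.62 CPM in biceps femoris caudal and 0 CPM in biceps brachii. The level in A1 was 1.60 CPM in longissimus and 0 in triceps brachii, infraspinatus and supraspinatus. All 7 hindlimb muscles had the gene, at 0.879 CPM or more, and beyond them only longissimus had any count. Biceps femoris caudal was the highest of the 18 muscles, followed by biceps femoris middle with 2.29 CPM. Longissimus set the top of the A1 range, and of the other 6 hindlimb muscles biceps femoris middle and extensor digitorum longus lay above it.

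ENSECAG00000027547 was at 17.8 CPM in biceps femoris caudal and 4.81 CPM in biceps brachii. In A1 it was at 5.28 CPM in triceps brachii, 3.26 in infraspinatus, 1.38 in supraspinatus and 4.21 in longissimus. Biceps brachii lay inside the A1 range, and biceps femoris caudal was alone above it. The other 12 muscles lay between 0.693 and 4.18 CPM, so this gene was high in no other hindlimb muscle, the middle and vertebral parts of biceps femoris included, at 1.88 and 1.15 CPM.

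Of the genes lower in biceps femoris caudal only, under the same minimum of 10 counts, ENSECAG00000009004 had 0.382 CPM in biceps femoris caudal and 2.07 CPM in biceps brachii. Within A1 it had 2.64 CPM in triceps brachii, 3.45 in infraspinatus, 2.75 in supraspinatus and 2.53 in longissimus. Both A3 libraries were below the narrow A1 range, but biceps brachii by less than the margin. Extensor carpi radialis alone was lower than biceps femoris caudal, at 0.267 CPM, and trapezius was the highest muscle, at 12.3 CPM.

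ENSECAG00000017789 had 0.136 CPM in biceps femoris caudal and 0.639 CPM in biceps brachii. Its level in A1 was 0.311 CPM in triceps brachii, 2.61 in infraspinatus, 0.715 in supraspinatus and 1.62 in longissimus. Biceps brachii lay inside the wide A1 range and biceps femoris caudal below it, on 5 counts. The middle and vertebral parts of biceps femoris were as low, at 0.094 and 0.141 CPM. Of the 176 genes carried lower by biceps femoris caudal only, 76 (43.2%) were also carried lower by extensor carpi radialis, the most of the 12 muscles, which carried 6.28% of all genes tested lower, and 41 (23.3%) were carried lower by none of them.

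**Figure D3:**
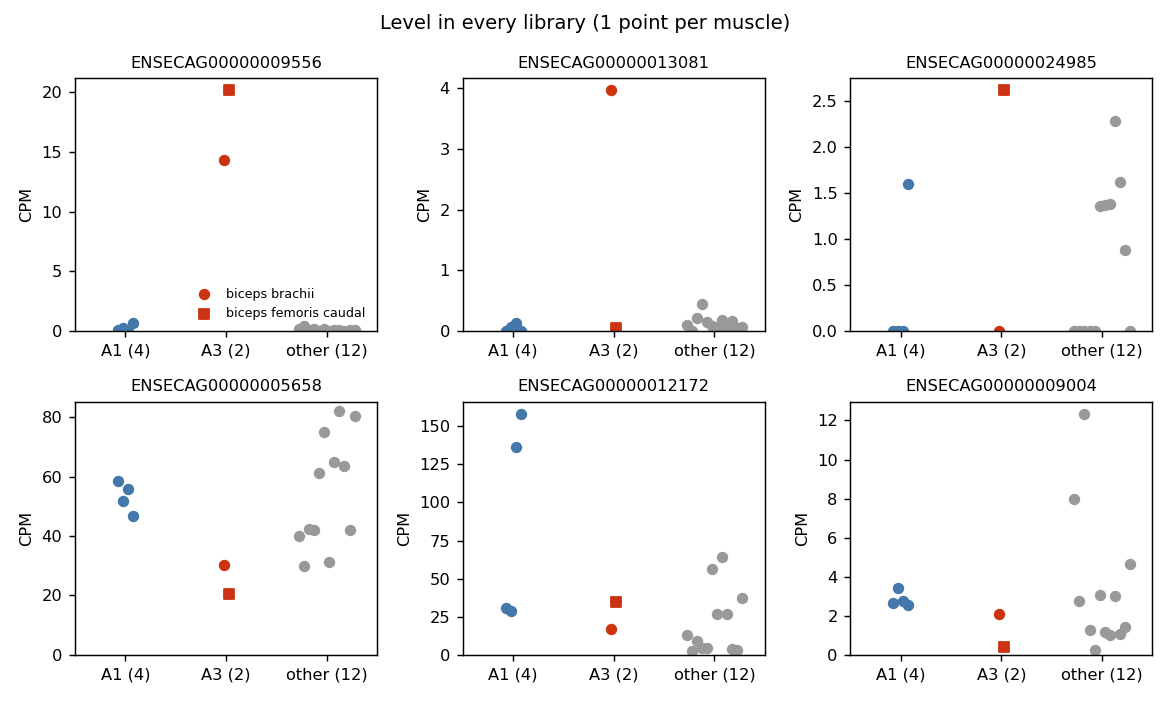
CPM of 6 genes in every library, with 1 point per muscle, A1 in blue, A3 in red (circle for biceps brachii, square for biceps femoris caudal) and the other 12 muscles in grey; each panel has its own axis from 0. Both A3 libraries stand above all other muscles for ENSECAG00000009556, biceps brachii alone for ENSECAG00000013081, and biceps femoris caudal lies with the other hindlimb muscles for ENSECAG00000024985.

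Across all muscles, the 135 genes called higher were highest in biceps brachii. It was the highest of the 18 muscles for 121 of them and biceps femoris caudal for 7, where over all genes tested they were highest for 1359 and 302. Both A3 libraries were the 2 highest muscles for 67 genes and among the 3 highest for 97, against 206 and 433 of all genes tested. The choice of the genes as high in A3 favours such ranks, so they are a description. The gap between the pair was wide, with biceps brachii a median of 1.43 log2 units above biceps femoris caudal. These genes were chosen as high in A3 and low in A1, so muscles outside A1 can lie above the A1 mean for that reason alone.

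Outside A3, the same genes were nearest to the A3 levels in omohyoideus, a neck muscle of subgroup B2. Their median difference from the A1 mean there was 1.26 log2 units, close to the 1.39 of biceps femoris caudal. Omohyoideus carried 93 of the 135 genes (68.9%), while it carried 7.08% of all genes tested. Among the 12 muscles outside A1 and A3 it was the highest for 60 of the 135 genes (44.4%), against 7.75% of all genes tested. The vertebral part of biceps femoris carried 60 of the 135 genes and gluteus superficialis 52, with median differences of 0.92 and 0.90, while they carried 8.03% and 4.12% of all genes tested. The remaining 9 muscles carried 13 to 26 of them each, with median differences of 0.35 to 0.59, and 2.36% to 9.16% of all genes tested. Of the 135 genes, 22 were carried higher by none of the 12 muscles, 22 by 1 muscle, 48 by 2 to 3, 31 by 4 to 6, and 12 by 7 or more. This count was not made over all genes tested, and the choice of genes low in A1 favours carriage by other muscles. Omohyoideus also had the fewest total counts of the 18 libraries and a TMM factor of 1.42, and gluteus superficialis a factor of 1.40. The part of library composition in these differences was not tested.

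**Figure D4:**
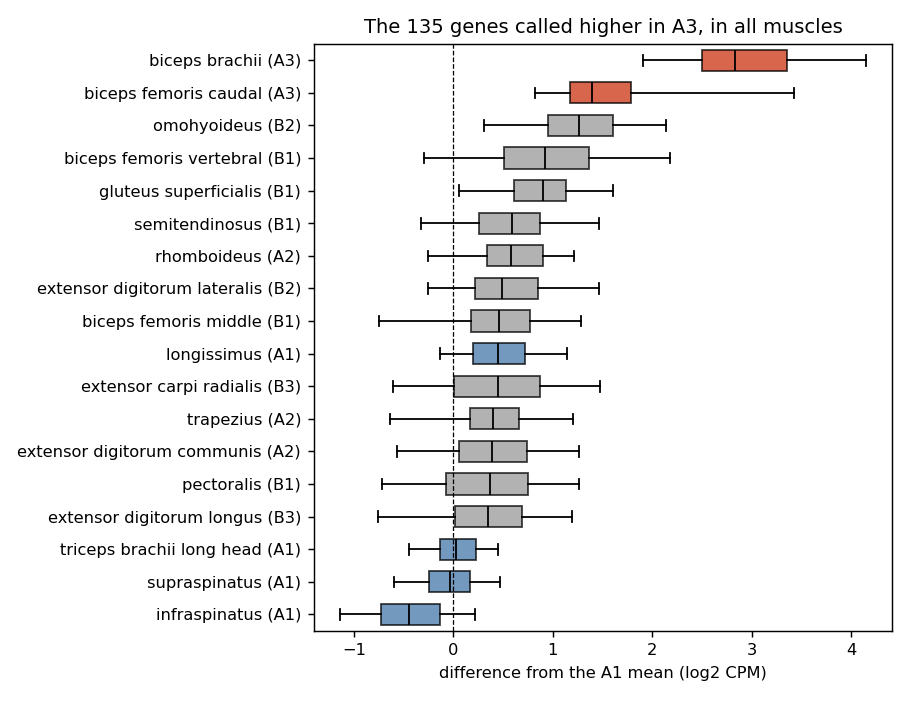
Difference from the A1 mean in log2 CPM of the 135 genes called higher in A3, for each of the 18 muscles; the line is the median, the box the quartiles and the whiskers the 5th and 95th percentiles, with A3 in red and A1 in blue. Biceps brachii has a median of 2.84 and biceps femoris caudal of 1.39, next to omohyoideus with 1.26.

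The 3 parts of biceps femoris fell in different subgroups, the caudal part in A3 and the vertebral and middle parts in B1. Over the genes called higher in A3, the caudal part was above the middle part in most, as the middle part was the higher in 4 of 135 and lay a median of 0.88 log2 units below it. The vertebral part was the higher in 38 of 135 and lay a median of 0.48 below the caudal part. These genes were chosen as high in the caudal library, and over all genes tested the middle part was the higher in 48.7% and the vertebral part in 51.4%. Over all genes tested, the caudal part differed by over 1 log2 unit from the middle part in 1063 genes and from the vertebral part in 1788, while the vertebral and middle parts differed in 1703. By this count the caudal part was nearer to the middle part of the same muscle than to biceps brachii, which differed from it in 1226 genes.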

How the data were processed

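The authors removed ribosomal RNA, prepared TruSeq libraries and sequenced 2 × 101 bp reads, aligned them to EquCab2 with STAR 2.5.2b in 2 passes and deposited raw read counts per Ensembl gene. Whether counting used strand was not given in the sources used here. The deposited table holds 25239 genes. Counts were fitted in R 4.3.3 with edgeR 4.0.16, without change, over the 9 group A libraries (A1 n = 4, A2 n = 3, A3 n = 2), with filterByExpr, TMM scaling and glmQLFTest on A3 minus A1. Standard errors are the absolute log2FC divided by the square root of the F statistic of that test. They draw on the A2 libraries and on dispersion shared across genes, so they are not the spread of 1 gene between A3 and A1 libraries. Differences of single libraries are in TMM log2 CPM with a prior count of 2, scaled over 18 libraries. Muscle subgroups follow the study's clusters, matched by tissue label. The members, rules and lists were chosen with earlier results of these data known. Identifiers were named as the largest difference in each direction, at most 2 each, with at least 10 counts in the higher libraries. Planned gene lists were not used, since no file or reference at hand paired identifiers with names, and no sequence is shown. The procedure was tested on simulated data. Alternatives were DESeq2 1.42.0, other scaling, filters, samples, margins and prior counts. CPM of few reads carry counting error, and PCR copies of a molecule were not told apart.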

Additional observations from a re-analysis of the deposited data

Results flagged for a closer look

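Of the 11 genes named, 2 had 1 A1 library that stood apart from the other 3 by Dixon's 95% criterion. By chance about 1 in 20 groups of normally distributed values pass it, and low counts need not be so distributed. ENSECAG00000016970, with 0 CPM in every A1 library, could not be judged by it. ENSECAG00000014725, carried higher by biceps brachii only, had 1.398 CPM in infraspinatus against 0 to 0.186 CPM in the other A1 libraries. ENSECAG00000024985, carried higher by biceps femoris caudal only, had 1.598 CPM in longissimus, the only A1 muscle outside the forelimb, and 0 CPM in the other A1 libraries. With 3 libraries at 0, any count in the fourth passes the criterion, so the rate of 1 in 20 does not apply to this gene.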

How the results depend on the processing

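The number of genes called depended on the fit, and more were higher than lower in A3 in all 17 fits. The 136 genes became 336 (327 higher) with DESeq2, 381 (376 higher) without the count filter, 81 (80 higher) with a mean of at least 10 counts, 8 (8 higher) from the A1 and A3 libraries alone, and 319 (319 higher) from all 18 libraries. Leaving out 1 library gave 5 to 558 genes. With a margin of 0.58 log2 units the genes carried were 579 higher and 88 lower in both, 1322 higher and 403 lower in biceps brachii only, and 228 higher and 537 lower in biceps femoris caudal only. The 12 genes carried lower by both became 21 with a prior count of 0.5 and 8 with a mean of at least 10 counts. Without 1 A1 library they were 15 to 27, the genes lower in biceps brachii only 61 to 105, those higher in both 244 to 366, those higher in biceps brachii only 767 to 904, those higher in biceps femoris caudal only 79 to 93 and those lower in it only 159 to 238. The causes were not tested. The fits for gene lists were not run, since no member could be matched. No paired analysis was possible because each muscle gave 1 library and the labels carry no replicate numbers. At 2 libraries in A3, a single library can make or end a call.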
